A study of Homo sapiens with 4 samples.

Results

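The protein disulfide isomerases of the endoplasmic reticulum (ER) were described as 10 genes, P4HB, PDIA3, PDIA4, PDIA5, PDIA6, TXNDC5, TXNDC11, TXNDC12, ERP44 and DNAJC10. They were chosen by symbol and not by their values, and each symbol stood on 1 of the 57979 lines that held values. RNA-seq was performed on polyadenylated RNA in 2 wild-type (WT) and 2 TXNDC9 knockout (KO) libraries of cells labelled HepG2, a human liver cancer line grown in DMEM with serum. In the knockout, the CRISPR-Cas9 system in a lentiviral vector targeted TXNDC9, a cytosolic thioredoxin domain protein, with either of 2 sgRNAs against its first exon. Which sgRNA the sequenced cells carried, whether they were a clone or a pool, and whether the libraries of a group came from separate cultures are not given in the sources used here, so p-values measure only the spread between these libraries.

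Protein disulfide isomerases are thioredoxin-fold enzymes that make, break and rearrange disulfide bonds in proteins entering the secretory pathway. Their active sites carry a pair of cysteines. These are reoxidized mainly by the ER oxidases ERO1A and ERO1B, with the peroxiredoxin PRDX4 as a further route, while other members act as reductases for proteins that are to be unfolded and degraded. Hepatocytes are known for a high load of secreted, disulfide-bonded plasma proteins.

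The cell type label was checked first. None of 9 hepatocyte markers (ALB, AFP, APOA1, APOB, TTR, SERPINA1, FGB, TF and HNF4A) had an average above 1 FPKM (fragments per kilobase of transcript per 1000000 mapped fragments, the unit of all levels given here). The highest value of any of them in any library was 0.449 FPKM (AFP), APOA1 was listed at 0 in all libraries, and their sum was 0.446 to 0.733 FPKM in wild-type and 0.048 to 0.174 FPKM in knockout libraries. The data therefore go against the label of a hepatocyte-derived line, and the libraries are called by their labels only. Of the 3 leukocyte markers 0 had an average above 1 FPKM, of the 3 endothelial markers 1 (CDH5), and of the 4 fibroblast markers 2 (COL1A1 and PDGFRB). CD3E and COL1A2 were at 0 in all libraries. The leukocyte markers summed to 0.272 to 0.575 FPKM in WT and 0.264 to 0.271 FPKM in KO libraries, the endothelial markers to 0.803 to 1.221 and 3.415 to 4.41 FPKM, and the fibroblast markers to 24.414 to 33.345 and 20.389 to 24.034 FPKM. The part of these lists in the results was not tested. TXNDC9 itself was 35.1 and 37.3 FPKM in WT and 21.9 and 27.6 FPKM in KO libraries. Its log2 fold change was −0.55 (standard error, SE, 0.14, limma adjusted p = 0.0145), which did not pass 0.01, and rescaling to TPM turned it to 0.12. All FPKM values of a library summed to 805816 and 971102 in wild type and to 535973 and 568279.5 in knockout.

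All 10 isomerase mRNAs were expressed, with averages far above 1 FPKM, and none was lost to the filter on low values. P4HB was the most abundant in every library. In wild type it was followed by PDIA3, PDIA6, TXNDC5, PDIA4, TXNDC11, TXNDC12, PDIA5, ERP44 and DNAJC10. Of these neighbours only TXNDC11 and TXNDC12 overlapped between libraries. In knockout libraries PDIA6 stood above PDIA3, and DNAJC10 stood in the seventh place rather than the last, next to TXNDC12, whose values it overlapped. ERP44 was the lowest there.

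**Figure D1:**
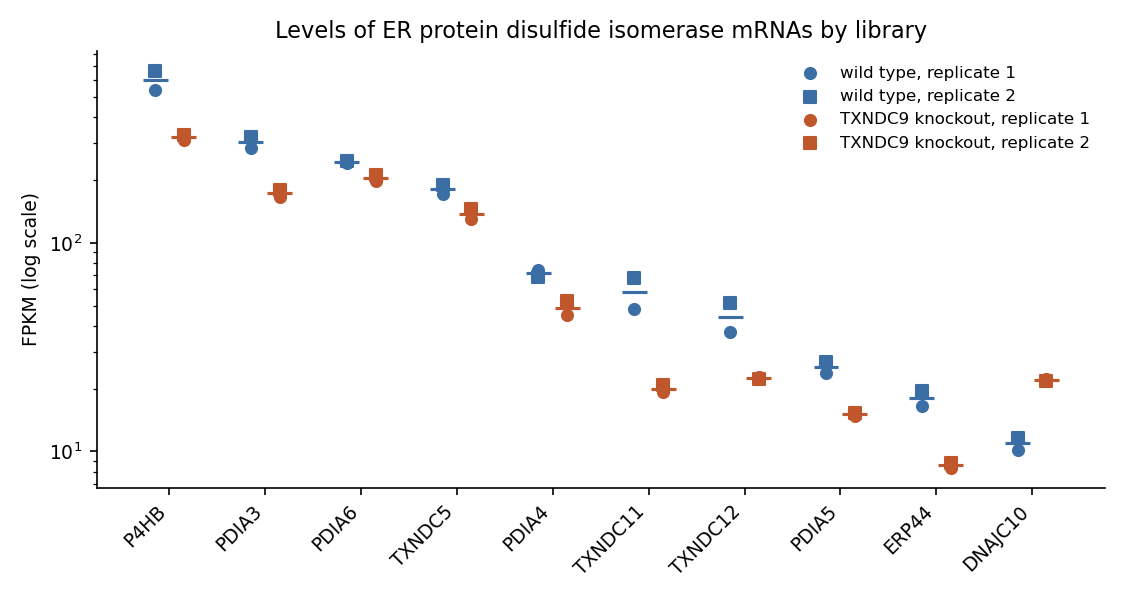
FPKM of the 10 isomerase genes (log axis) in the 2 wild-type libraries (blue) and the 2 knockout libraries (orange), with a bar at each group mean, ordered by the wild-type mean. Values run from 8.35 FPKM (ERP44, knockout) to 668 FPKM (P4HB, wild type), and only DNAJC10 is higher in knockout libraries.

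Groups were compared on log2(FPKM + 0.1), where fold changes of low genes are understated, over 13246 genes with an average above 1 FPKM. Calls needed at least 2-fold and, with Benjamini-Hochberg adjustment over these genes, a limma p under 0.01. Of the 10 isomerase genes, 2 were called lower in knockout libraries (TXNDC11 and ERP44), against 15.3% of all tested genes, and 1 was called higher (DNAJC10), against 14.2%. By the adjusted p alone, at any fold, 7 were lower, against 27.1% of tested genes, and 1 was higher, against 23.7%. The 7 became 1 of 10 after rescaling to TPM (10.4% of tested genes), 3 of 10 with the libraries corrected for canonical transcript length and GC content (15.1%) and 8 of 10 with the median transcript in its place (20.4%). In 9 members both knockout values lay below both wild-type values, which was so for 45.9% of tested genes. In DNAJC10 they lay above them, as for 40.1% of tested genes. The median log2 fold change of the members was −0.78, and that of all tested genes was −0.09. Genome-wide calls were common in these libraries, and in FPKM as deposited the counts of called members stood close to the background. On the lower side, the number that did not overlap stood above it. Overlap was counted only in FPKM as deposited, where the knockout libraries have smaller sums. The number that was lower by p alone stood above the background as deposited and by the median transcript. With the canonical correction it was 3 of 10 against 15.1%, a smaller distance. With TPM it did not stand above it, at 1 of 10 against 10.4%. On the higher side it stood below the background, at 1 of 10 as deposited and 2 of 10 with TPM (44.7% of tested genes). It was 0 with either correction (11.8% and 17.9%). The calls of TXNDC11, ERP44 and DNAJC10 did not hold with either KO library left out, where the spread came from the wild-type pair alone. Any fit with 1 library left out has 1 residual degree of freedom, also those without a wild-type library.

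P4HB, the founding isomerase, forms and shuffles disulfides in nascent proteins and is also a subunit of prolyl 4-hydroxylase and of the microsomal triglyceride transfer protein. It was 538 and 668 FPKM in WT and 310.4 and 329 FPKM in KO libraries, so the groups did not overlap and the wild-type libraries lay further apart. The means were 603 ± 92.3 and 319.6 ± 12.9 FPKM (SD, n = 2). The fitted log2 fold change of −0.91 (SE 0.16, limma adjusted p = 0.00397) was short of 2-fold. It was −1.06 and called without wild-type replicate 1, −0.48 with the length and GC correction (limma adjusted p = 0.0355) and −0.23 with TPM.

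PDIA6, a partner of the chaperone HSPA5, and TXNDC5, which has several thioredoxin domains, had the smallest differences in FPKM as deposited. PDIA6 was 241 and 247 FPKM in WT and 198 and 212 FPKM in KO libraries. Its log2 fold change was −0.25, with a 95% interval from −0.54 to 0.04 (limma adjusted p = 0.104). TXNDC5 was 171 and 190.1 FPKM in WT and 131 and 145 FPKM in KO libraries. These 2 genes thus did not pass the test, although their groups did not overlap. The log2 fold change of TXNDC5 was −0.39, with an interval from −0.70 to −0.09 (limma adjusted p = 0.0324).

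PDIA4, an isomerase found with HSPA5 and HSP90B1 in chaperone complexes, was 74.1 and 68.4 FPKM in WT and 44.9 and 52.4 FPKM in KO libraries. It was the only member with a lower value in wild-type replicate 2 than in replicate 1. Its log2 fold change was −0.55 (SE 0.12, limma adjusted p = 0.00896). PDIA5, a less studied family member, was 23.8 and 26.8 FPKM in WT and 14.8 and 15.3 FPKM in KO libraries. The knockout replicates were nearly equal, and the log2 fold change was −0.75 (SE 0.11, limma adjusted p = 0.00201). Both fell by less than 2-fold.

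PDIA3 works on glycoproteins held by the lectins CANX and CALR and takes part in loading peptides on MHC class I. It was 285 and 320.4 FPKM in WT and 166 and 179.7 FPKM in KO libraries. The groups were well apart, with means of 303 ± 24.7 and 173 ± 9.33 FPKM (SD, n = 2). It fell by 0.81 on the log2 scale (SE 0.13, limma adjusted p = 0.00275). Once the libraries were corrected for the length and GC content of transcripts it was −1.19 and was called (limma adjusted p = 0.00237). With TPM it was −0.13 and did not pass the test (limma adjusted p = 0.212).

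TXNDC11, a membrane protein of the ER that takes part in the degradation of glycoproteins with EDEM2, had the largest fall of the members in FPKM as deposited, while ERP44 was lower after either length and GC correction. It was 48.2 and 67.5 FPKM in WT and 19.2 and 20.8 FPKM in KO libraries. The wild-type replicates differed more than in most members, yet both were more than 2 times each knockout value. The means were 57.9 ± 13.6 and 20.0 ± 1.17 FPKM (SD, n = 2). Its log2 fold change was −1.51 (SE 0.18, limma adjusted p = 0.00104), and 6.04% of tested genes had a lower one. It was −1.45 and still called after the length and GC correction, and −0.83 after rescaling to TPM, which is short of 2-fold.

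TXNDC12, a small enzyme with a single thioredoxin domain, was 37.2 and 51.4 FPKM in WT and 22.7 and 22.2 FPKM in KO libraries. Its log2 fold change was −0.96 (SE 0.17, limma adjusted p = 0.00386), just short of 2-fold. It was −1.19 and called without wild-type replicate 1, −0.73 without replicate 2, −0.68 with the length and GC correction (limma adjusted p = 0.0154) and −0.28 with TPM. ERP44 retrieves ERO1 oxidases, PRDX4 and incompletely assembled proteins from the early secretory pathway. It was 16.5 and 19.5 FPKM in WT and 8.35 and 8.78 FPKM in KO libraries, so the groups did not overlap. The log2 fold change was −1.06 (SE 0.12, limma adjusted p = 0.00102), just past 2-fold. It was −0.94 and not called without wild-type replicate 2.

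DNAJC10 is a reductase with a J domain that works with HSPA5 and EDEM1 on proteins bound for degradation. It was the only member that rose in FPKM as deposited. It was 10.2 and 11.7 FPKM in WT and 22.3 and 21.7 FPKM in KO libraries. Its means were 10.9 ± 1.03 and 22.0 ± 0.372 FPKM (SD, n = 2), with no overlap. The log2 fold change was 1.01 (SE 0.11, limma adjusted p = 9.17e-04), at the edge of 2-fold, and 0.91 without wild-type replicate 1, where it was not called. This call and its direction rested on how the length and GC content of transcripts were handled across genes, as described next.

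Fold changes followed transcript length and GC content in these libraries. Over the 13112 tested genes with an annotated canonical transcript, Spearman's rho of the log2 fold change was 0.495 with length and −0.462 with GC content, as a description across genes of the same 4 libraries. Over the 10 members the values were 0.042 and −0.273. The canonical transcript of DNAJC10 has 20144 nt and 37.45% GC, and it is longer than those of 98.85% of tested genes. Those of the other members run from 1416 nt (TXNDC12) to 4808 nt (ERP44), around the median of 2866.5 nt.

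With the libraries corrected for canonical length and GC content, the log2 fold change of DNAJC10 was 0.08 (limma adjusted p = 0.619). With the median length and GC content of each gene's annotated transcripts, an alternative added after seeing the data, it was −0.93 (limma adjusted p = 0.0034). The median length of DNAJC10, 19989 nt, is close to its canonical 20144 nt, whereas that of TXNDC11 is 919 nt against 3116 nt. As 98.85% of tested genes have a shorter canonical transcript, the corrected values of DNAJC10 lie near the end of the fitted range. ERP44 also moved lower, to −1.81 and −1.99, and TXNDC11 stayed at −1.45 and −1.38. The transcripts that the authors' FPKM values assume were not used here, and the part of length in these differences was not tested.

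**Figure D2:**
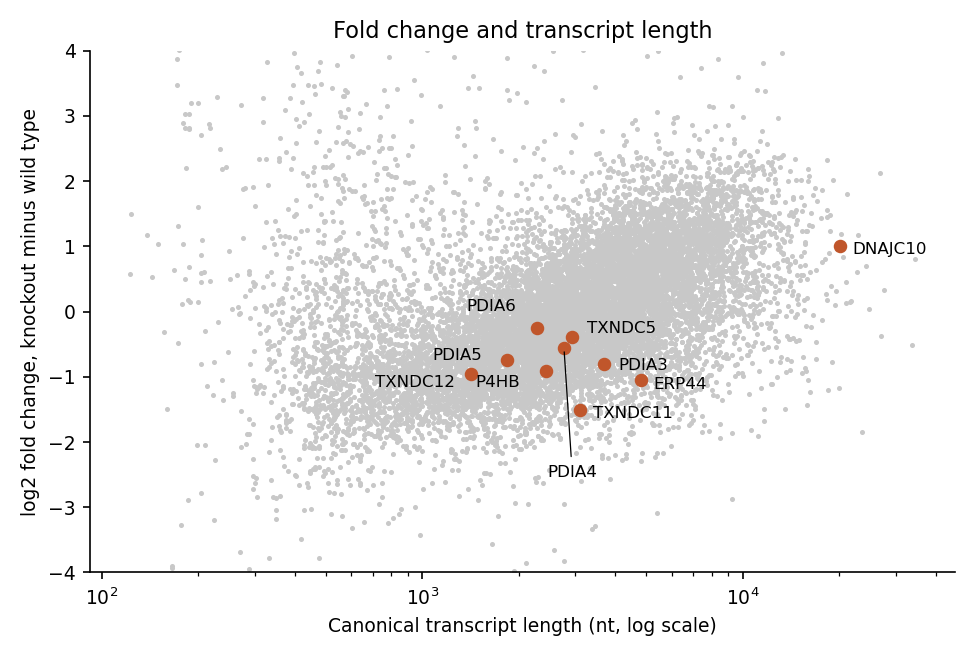
Log2 fold change (knockout minus wild type) against canonical transcript length (nt, log axis) for 13112 tested genes (grey) and the 10 isomerase genes (orange); 70 genes beyond 4 in either direction are not drawn. The cloud rises from left to right, DNAJC10 sits far to the right at 20144 nt and 1.01, and ERP44 (4808 nt, −1.06) and TXNDC11 (3116 nt, −1.51) lie below 0.

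Scaling of whole libraries also mattered. Giving all libraries 1 common sum (TPM) moved the median over all tested genes by 0.67 on the log2 scale, from −0.09 to 0.59, and that of the members from −0.78 to −0.10. PDIA6 then became higher in knockout libraries, at 0.43, TXNDC5 at 0.29 and PDIA4 at 0.13. DNAJC10 was 1.69 and remained called, whereas TXNDC11 and ERP44 (−0.38) were not. Among all tested genes, and before this rescaling, 6.04% of genes had a lower log2 fold change than TXNDC11, 15.6% than ERP44, 18.4% than TXNDC12, 43.7% than PDIA6 and 84.3% than DNAJC10.

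**Figure D3:**
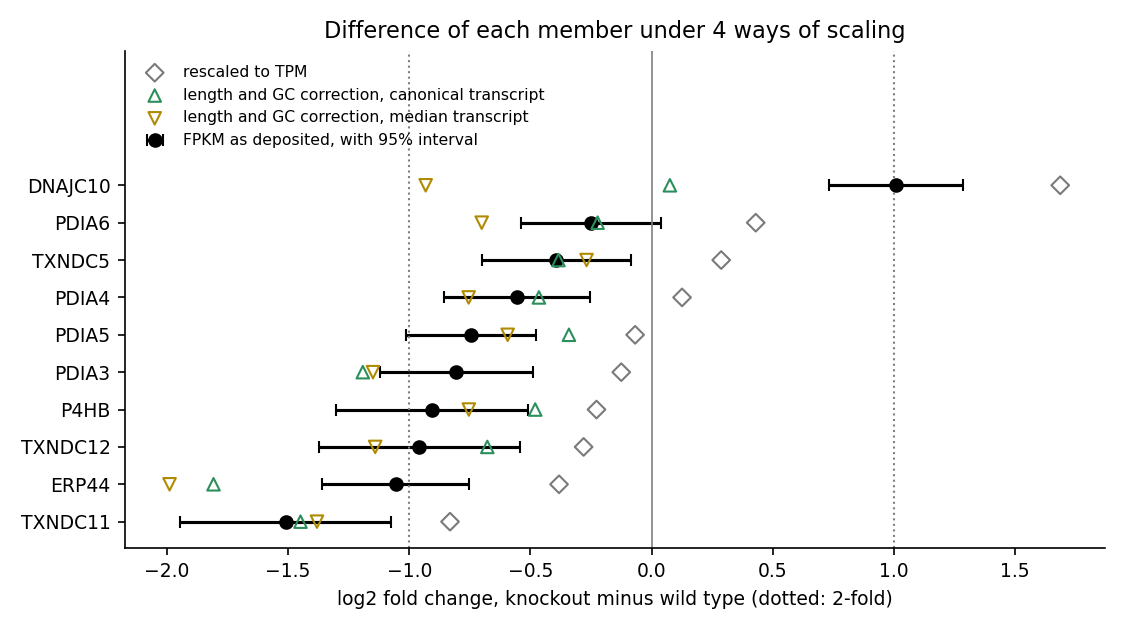
Log2 fold change of each member (x axis, knockout minus wild type), with the 95% interval of limma for FPKM as deposited (black) and the values after rescaling to TPM and after the 2 length and GC corrections (open symbols); dotted lines mark 2-fold. TXNDC11, ERP44, TXNDC12, P4HB, PDIA3 and PDIA5 are below 0 under all 4, and DNAJC10 runs from 1.69 to −0.93.

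Ratios between members do not depend on the scaling of a library, but they do on the length and GC correction. The sum of the 10 genes was 1446 and 1671 FPKM in WT and 938 and 1006 FPKM in KO libraries, a mean of 62.4% of the wild-type level. Per 1000000 of the library's summed FPKM it was 1794 and 1721 in wild type and 1750 and 1770 in knockout, and these ranges overlapped. With 2 against 2, the smallest p of an exact permutation is 0.33, so the sum was not tested. In bulk RNA, fewer expressing cells and less RNA per cell cannot be told apart.

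Within the sum, P4HB took 38.6 ± 1.98% in wild type and 32.9 ± 0.295% in knockout (SD, n = 2). PDIA3 took 19.5 ± 0.4% and 17.8 ± 0.08%. PDIA6 took 15.7 ± 1.36% and 21.1 ± 0.059%, and TXNDC5 11.6 ± 0.33% and 14.1 ± 0.318%. In FPKM as deposited the shares of P4HB and PDIA3 were thus lower and those of PDIA6 and TXNDC5 higher in knockout libraries, without overlap for any of these 4. The log2 difference of PDIA6 to P4HB, 0.66, was 0.26 with the length and GC correction and 0.05 by the median transcript, and that of PDIA6 to PDIA3, 0.55, was 0.97 and 0.45. TXNDC11 took 3.69 ± 0.499% and 2.06 ± 0.019%, and DNAJC10 0.701 ± 0.005% and 2.27 ± 0.15%.

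Some ratios changed places. PDIA6 mRNA was 0.846 and 0.77 times that of PDIA3 in wild type and 1.19 and 1.18 times it in knockout. DNAJC10 was 0.618 and 0.599 times ERP44 in wild type and 2.67 and 2.47 times it in knockout. These ratios show unequal change of the 2 genes, and not which of them changed.

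**Figure D4:**
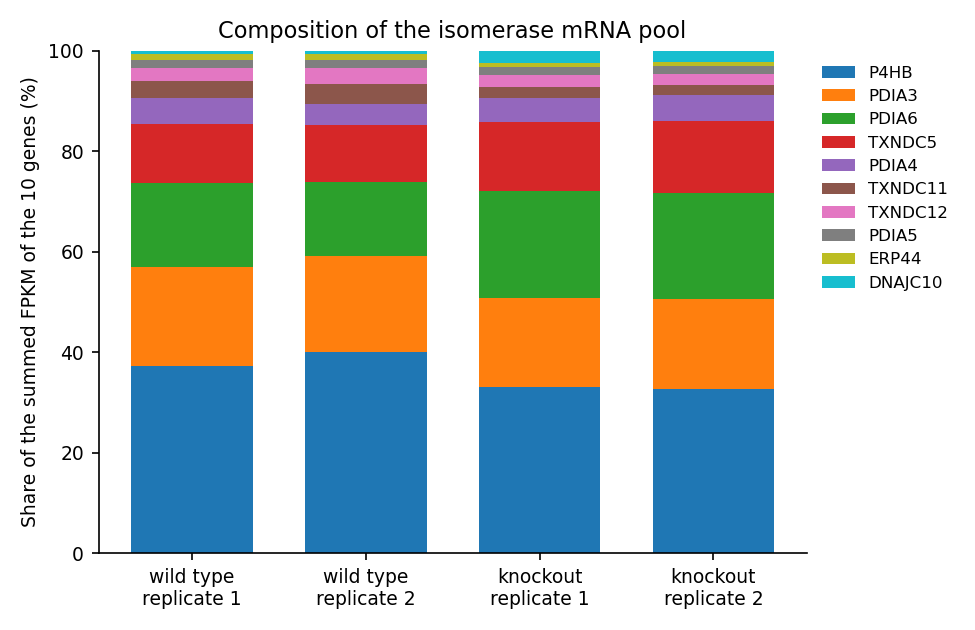
Share of each gene (%) in the summed FPKM of the 10 isomerase genes, as 1 stacked bar per library. P4HB takes 37.2% and 40.0% in the wild-type libraries and 33.1% and 32.7% in the knockout libraries, and PDIA6 16.7% and 14.8% against 21.2% and 21.1%.

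Promoters were searched because 9 members were lower together in FPKM as deposited. Of these, PDIA4, PDIA6 and TXNDC5 were higher in knockout libraries with TPM. RefSeq windows (GRCh38.p14) from 250 bases before to 50 bases after a start site were at hand for 9 of the 10 genes, in 13 windows, with none for PDIA3. Both strands were searched. The ER stress response element (ERSE, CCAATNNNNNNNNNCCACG), bound by ATF6 with NF-Y, was in 1 member, PDIA6, and in 0.077% of all 35116 windows. It is shown because PDIA6 had the smallest difference in FPKM as deposited, a log2 fold change of −0.25. That of PDIA6 was 0.43 with TPM and −0.70 with the correction by the median transcript, where it was not the smallest. The capitals mark the fixed letters, the site lies at chr2:10812853-10812871 on the minus strand, and its first base is 86 bases before the start site.

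PDIA6 ERSE: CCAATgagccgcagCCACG

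The core of the unfolded protein response element, TGACGTG, was in 3 members and in 1.97% of all windows. It lay at chr2:182716133-182716139 in DNAJC10, at chr6:7910163-7910169 in TXNDC5 and at chr16:11742846-11742852 in TXNDC11, on the minus strand in each, so it was found in the gene that rose, in TXNDC11, which fell, and in a gene that did not pass the test. The E-box CACGTG, which MYC and other factors can bind and which has the letters ACGTG in common with that core, was in PDIA5 and TXNDC12 and in 7.26% of all windows. ERSE-II (0.054% of all windows) and TTGCATCA, a motif of ATF4 target genes (0.866%), were in 0 members. A match is a string of letters and not a measured site.

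The genes lie apart in the genome (hg38, GENCODE release 44). P4HB spans chr17:81843159-81860856, PDIA3 chr15:43746394-43773279, TXNDC11 chr16:11679083-11742857, ERP44 chr9:99979185-100099052 and DNAJC10 chr2:182716255-182794464. PDIA4 spans chr7:149003062-149028662, PDIA5 chr3:123067025-123225227, PDIA6 chr2:10783391-10837977, TXNDC5 chr6:7881517-7910788 and TXNDC12 chr1:52020131-52055191. The called genes have the identifiers ENSG00000153066 (TXNDC11), ENSG00000023318 (ERP44) and ENSG00000077232 (DNAJC10). All but PDIA4 overlap another annotated gene, and the use of strand is not given in the sources used here, so reads of opposite genes cannot be told apart. The overlapping genes with the highest levels were SEC22A at PDIA5 (15.0 and 20.2 FPKM in wild type, 17.2 and 20.2 FPKM in knockout), BMP6 at TXNDC5 (17.2 and 18.6, then 6.23 and 5.98 FPKM) and KTI12 at TXNDC12 (16.4 and 17.5, then 9.54 and 10.5 FPKM). The read-through gene BLOC1S5-TXNDC5 was listed at 0 in all libraries.

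Partners of the isomerases were taken from 7 lists of 100 genes, of which 75 were tested. Of these, 15 were called lower and 9 higher, which is 20.0% and 12.0%, against 15.3% and 14.2% of all tested genes, a background that also holds for each list below. The median of their log2 fold changes was −0.22. The lists differed in direction, and the genes named below come from the 2 with the largest change in each list and the direct partners of members.

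Among the other family members, 7 of 15 were tested, 1 was called lower and 3 higher. TMX3, a membrane-bound isomerase, was 9.14 and 11.7 FPKM in WT and 23.9 and 24.5 FPKM in KO libraries, a log2 fold change of 1.22 (limma adjusted p = 0.00102). TXNDC16 was 2.58 and 2.53 FPKM in WT and 6.04 and 6.07 FPKM in KO libraries, a log2 fold change of 1.21. The other calls, named after their values were seen, were TMX1 (1.21) and the soluble ERP29 (−1.14). After the length and GC correction 0 of the 3 rises were called, with limma log2 fold changes of 0.35 for TMX3 and 0.47 for TXNDC16. PDILT, AGR3 and CASQ2 were listed at 0 in all libraries.

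Of the oxidants and thiol proteins of the ER, 10 of 13 were tested, 3 were called lower and 0 higher, with 2 higher at an unadjusted limma p under 0.05. PRDX4, which uses peroxide to reoxidize isomerases, was 466 and 619 FPKM in WT and 231 and 241 FPKM in KO libraries, a log2 fold change of −1.19 (limma adjusted p = 0.00207). ERO1A, the main oxidase, was 37.9 and 40.1 FPKM in WT and 42.8 and 40.0 FPKM in KO libraries. These overlapped, and the interval of its log2 fold change ran from −0.17 to 0.34. That fold change was 0.77 with TPM (limma adjusted p = 0.00162) and −0.75 with the length and GC correction (limma adjusted p = 0.00388). ERO1B had 0.531 to 0.652 FPKM in all libraries and was not tested. VKORC1, the vitamin K epoxide reductase that can also pass electrons from isomerases, fell by 1.60 on the log2 scale, and the thiol-disulfide selenoprotein SELENOM fell by 2.38, from 7.96 and 12.5 to 1.53 and 2.18 FPKM. With the length and GC correction or with TPM 1 of these 3 remained called, SELENOM, while VKORC1 was −0.68 and −0.92 and PRDX4 −0.62 and −0.51.

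In the calnexin cycle, which holds glycoproteins for PDIA3, 4 of 12 genes were called lower and 1 higher. The lectins went apart. CALR was 860 and 1057 FPKM in WT and 419 and 459 FPKM in KO libraries, a log2 fold change of −1.12 (limma adjusted p = 0.0023). CANX was 246 and 222 FPKM in WT and 437 and 483 FPKM in KO libraries, a log2 fold change of 0.98 (limma adjusted p = 0.00174), just short of 2-fold. The CANX to CALR ratio, free of library scaling, was 0.286 and 0.21 in wild type and 1.04 and 1.05 in knockout. UGGT1, which tags misfolded glycoproteins for another round, rose by 1.06 on the log2 scale, and PRKCSH, a subunit of glucosidase II, fell by 1.39. With the length and GC correction limma called 0 of the 12 genes, and the values were 0.25 for CANX, −0.67 for CALR, 0.09 for UGGT1 and −0.65 for PRKCSH.

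Of the proteins that share a complex with an isomerase, 9 of 11 were tested, and 1 was called lower and 0 higher, with 1 higher at an unadjusted limma p under 0.05. The prolyl 4-hydroxylase subunits that bind P4HB did not pass the test in FPKM as deposited. P4HA1 was 19.4 and 19.3 FPKM in WT and 20.3 and 20.5 FPKM in KO libraries, and P4HA2 had a log2 fold change of −0.22 with an interval from −0.48 to 0.05. With the length and GC correction P4HA2 was −0.74 (limma adjusted p = 0.00425). P4HA1 was 0.75 with TPM (limma adjusted p = 0.0029) and −0.59 by the median transcript (limma adjusted p = 0.00446). Each was short of 2-fold. MTTP, the partner of P4HB in lipoprotein assembly, was between 0 and 0.0991 FPKM. TAPBP, which binds PDIA3 in the peptide-loading complex, had a log2 fold change of 0.03. HLA-C was called, at −1.74, but not with the length and GC correction, at −0.86. It has close paralogs, so its values are uncertain.

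Of the ER chaperones 6 of 17 were called lower (35.3%, against 15.3% of all tested genes) and 0 higher by limma (3 at an unadjusted p under 0.05), and their median log2 difference was −0.87. With TPM 2 were called lower and 3 higher, against 447 and 4380 of 13246 tested genes. With the length and GC correction 6 were called lower and 0 higher, against 983 and 826 of 13112 genes. By the median transcript 7 were called lower and 0 higher, against 1300 and 1302. FKBP2 and PPIB, prolyl isomerases of the ER, fell by 1.99 and 1.68 on the log2 scale, and PPIB went from 702 and 934 to 237 and 267 FPKM. With the length and GC correction FKBP2 was −1.29 and called and PPIB was −0.95 and not called. HSPA5, the partner of DNAJC10 and PDIA6, was 269 and 278 FPKM in WT and 161 and 183 FPKM in KO libraries, a log2 fold change of −0.67 (limma adjusted p = 0.00494). With the length and GC correction HSPA5 was −1.04 and called and DNAJC10 0.08, by the median transcript they were −1.41 and −0.93, and with TPM 0.0066 and 1.69, so their opposite direction in FPKM as deposited depended on the scaling. Of the ER-associated degradation genes 14 of 15 were tested, 0 were called lower by limma (4 at an unadjusted p under 0.05) and 1 higher. This was SEL1L, the adaptor of the HRD1 ligase, at 5.47 and 5.48 FPKM in WT and 15.2 and 15.6 FPKM in KO libraries. Its log2 fold change of 1.47 became 0.43 with the length and GC correction, which called 0 genes of this list. By the median transcript it was 1.17 and called (limma adjusted p = 0.00177). That correction called 2 genes of this list higher and 0 lower, against 1302 and 1300 of 13112 genes. EDEM1, with DNAJC10 in degradation, had a log2 fold change of 0.95 and EDEM2, with TXNDC11, of −0.94, each short of 2-fold. With the length and GC correction they were 0.23 and −0.45. By the median transcript EDEM1 was 1.20 and called, and EDEM2 was −0.81 and not called.

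Of the 17 secreted and receptor proteins rich in disulfides only 6 were tested, since 11 had an average of 1 FPKM or less, ALB, FGA, FGB, FGG and APOB among them. Of the tested genes 4 were called higher and 0 lower by limma (1 lower at an unadjusted p under 0.05). TFRC, the transferrin receptor, was 94.3 and 73.9 FPKM in WT and 386 and 387 FPKM in KO libraries, a log2 fold change of 2.21 (limma adjusted p = 5.12e-04). It was also called after the length and GC correction, at 1.49. INSR and IGF1R were among the other calls, named after their values were seen. With the length and GC correction, which called 2 genes of this list, INSR was 0.65 and IGF1R 0.61, and neither was called. By the median transcript they were 1.56 and 1.45 and called.

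**Figure D5:**
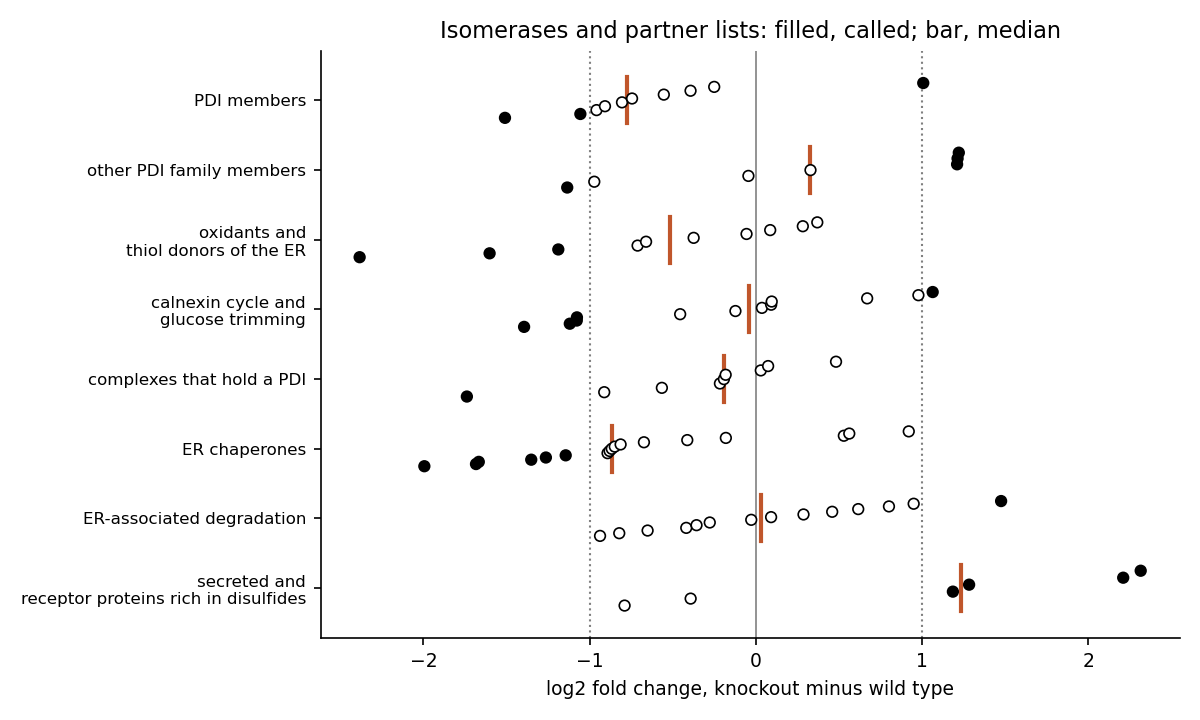
Log2 fold change (knockout minus wild type) of the tested genes of each list, filled where called, with an orange bar at the list's median; dotted lines mark 2-fold. The medians run from −0.87 (ER chaperones) to 1.23 (secreted and receptor proteins), and the isomerases stand at −0.78.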

How the data were processed

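The values are FPKM as deposited by the authors, who ran TopHat2 on hg38 with Ensembl genes and known junctions only, then Cuffdiff from Cufflinks. Versions, library normalization and strand use are not given in the sources used here. The table also holds the authors' condition averages, fold changes, p-values and q-values, which were not used. FPKM values are not counts, so the depth is unknown. Each identifier stood 4 times on lines of other symbols. Symbols were read with the values on their own line, and identifiers were put back in order, after which 85.2% of 13112 expressed genes found in GENCODE release 44 had the same symbol, with all 10 members among them.

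Samples were grouped by title. The 13246 genes averaging over 1 FPKM were fitted as log2(FPKM + 0.1) in limma 3.58.1 (R 4.3.3; intensity trend for the prior; Benjamini-Hochberg p adjustment), and called at adjusted p under 0.01 and 2-fold, the study's thresholds. Members and lists were chosen with earlier results of these data known. Named genes were all members, TXNDC9, the 2 largest changes of each list and direct partners. Some genes that this rule names are not reported here. Alternatives were another pseudocount, filter, p threshold, scaling or trend, the replicate block, each library left out, and a loess correction (span 0.3) for transcript length and GC content. No symbol of a member repeated, so summing lines was not needed. The fits, with and without the block and the correction, were tested on simulated data with known changes. Where a trend with canonical length was added to all simulated knockout values, the fit without the correction, which is the one used for the calls, made many false calls. The correction, by that same length, removed nearly all of them. Both outcomes followed from how the trend was built. The simulation therefore does not say how many calls in the real libraries are false. Tables were made with pandas 2.3.3 and figures with matplotlib 3.10.9.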

Additional observations from a re-analysis of the deposited data

How the results depend on the processing

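The number of isomerase genes called lower, 2, stayed from 2 to 3 with a pseudocount of 0.01, another filter, an adjusted p under 0.05, no trend, the replicate block and the length and GC correction with and without the block. It was 1 with a pseudocount of 1 (ERP44 at −0.98), 0 with TPM, 4 after centring on the median, 4 with the correction by the median transcript, and 0 to 4 with each library left out. The number called higher, 1, became 0 with a pseudocount of 1 (DNAJC10 at 0.95), after centring and with each of the length and GC corrections, and was 0 to 1 with each library left out. By unadjusted limma p under 0.05, 8 members were lower and 1 higher without a correction, against 5073 and 4369 of 13246 tested genes. With the length and GC correction 8 members were lower and 0 higher, against 4296 and 3410 of 13112 genes. Leaving out any library leaves 1 residual degree of freedom, the lone library being taken to vary like the other group. Without a wild-type library the spread comes from the knockout pair alone. Without a knockout library it comes from the wild-type pair alone. No adjusted p over all genes then reached the threshold, so no gene could be called. The median log2 fold change of the members was −0.74 without KO replicate 1 and −0.81 without KO replicate 2. The median log2 fold change of the members, −0.78, was −0.10 with TPM, −0.92 after centring, −0.47 with the correction, with or without the block, and −0.69 to −0.86 with each library left out.

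Over all 13246 tested genes, 2021 were called lower and 1885 higher, beside 2 and 1 of the 10 members. These counts were 447 and 4380 with TPM, beside 0 and 1 members. Of 13112 genes with a transcript length, 983 and 826 were called with the correction, beside 3 and 0 members. The correction and the replicate block gave 983 and 730. The correction by the median transcript gave 1300 and 1302, beside 4 and 0 members. An average FPKM above 5 left 1220 higher. They ranged from 0 to 2633 and from 0 to 2136 with each library left out. Of the partner genes 15 were called lower and 9 higher, against 4 and 21 with TPM, 8 and 2 with the correction with or without the block, and 0 to 22 and 0 to 10 with each library left out. The deviations of same-numbered libraries had a correlation of −0.0904, and the numbers were not taken as a pairing. With the replicate block 2146 genes were lower and 1960 higher, and no call of a member or named partner changed.

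Direction turned with TPM for TXNDC9 (0.12), PDIA4 (0.13), PDIA6 (0.43), TXNDC5 (0.29), HSPA5 (0.0066) and P4HA2 (0.46). It turned after centring for ERO1A (−0.0574), P4HA1 (−0.0699) and TAPBP (−0.11), and with the correction, with or without the block, for ERO1A (−0.75) and P4HA1 (−0.15). With the correction by the median transcript it turned for DNAJC10 (−0.93), ERO1A (−0.23), P4HA1 (−0.59) and P4HA2 (0.0062). TAPBP ran from −0.0961 to 0.1547 with each library left out, and was below 0 without WT replicate 1 or KO replicate 1. The cause of these differences was not tested. Groups of 2 allow no search for an outlying library, and without counts no detection limit can be given.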
